A study of Mus musculus with 3 samples.

Results

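Divergent protein-coding gene pairs were analysed in the embryonic mouse cortex, as the promoters at which 2 genes start back to back. A pair was taken from GENCODE M21 where a protein-coding gene on the minus strand lay to the left of a protein-coding gene on the plus strand and their 5′ ends were 1 to 1000 bp apart without overlap. The rule found 754 pairs, which held 1487 of 21938 protein-coding genes. A gene could belong to 2 pairs, as 21 genes did, so 42 pairs shared a gene with another pair. Each pair was examined over the interval between its 5′ ends plus 500 bp on each side. The 5′ ends of the other 20451 genes, with 500 bp on each side, were the comparison.

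The material was cerebral cortex of mouse embryos at E13.5, fixed with formaldehyde and sonicated. An input, a chromatin immunoprecipitation with an antibody against the NF-YC subunit (NF-Y-ChIP) and another against histone H3 trimethylated at lysine 4 (H3K4me3-ChIP) gave 1 library each, and neither genotype nor the number of pooled embryos is stated in the labels. There were no replicates, so no p-value is given, and the intervals below are 95% intervals that cover the counting of regions only. The list of NF-Y-ChIP held 733 peaks and that of H3K4me3-ChIP 18816, whereas the input has no list and the depth is unknown. H3K4me3-ChIP peaks lay within 1000 bp of the 5′ ends of 7 of 7 markers of cortical progenitors (including Sox2 and Pax6) and 7 of 7 markers of intermediate progenitors and neurons (including Eomes and Tbr1). They also marked 1 of 3 endothelial genes (Cldn5), 1 of 3 blood genes and 1 of 2 muscle genes (Ckm), but none of the 3 microglial, 2 liver and 2 epidermal genes.

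In a divergent pair, a single stretch of DNA serves as the promoter of both genes, and RNA polymerase II leaves it in opposite directions. Such promoters are often rich in CpG and poor in TATA boxes, and many serve genes for DNA repair, the cell cycle and mitochondria. NF-Y is a trimer of NF-YA, NF-YB and NF-YC that binds the CCAAT box in either orientation, and H3K4me3 marks the nucleosomes beside active start sites.

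The sequences of the pairs with the strongest NF-Y-ChIP peaks show where CCAAT boxes lay between the 5′ ends. Each is the whole interval on the plus strand of GRCm38 (RefSeq), written 5′ to 3′, so that the left gene is transcribed to the left and the right gene to the right. Capitals mark CCAAT and its reverse complement ATTGG, which is a CCAAT box on the minus strand. The 8 pairs follow in order of fold enrichment, leaving out the intervals of over 300 bp, Prr11-Ska2 and Dedd2-Zfp526.
Hmmr-Nudcd2 (chr11:40733423-40733666): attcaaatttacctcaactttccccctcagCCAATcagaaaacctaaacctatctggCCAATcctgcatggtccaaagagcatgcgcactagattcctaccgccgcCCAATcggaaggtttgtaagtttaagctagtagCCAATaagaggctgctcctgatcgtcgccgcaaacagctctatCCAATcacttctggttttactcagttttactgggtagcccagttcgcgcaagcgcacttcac
Recql-Golt1b (chr6:142387088-142387220): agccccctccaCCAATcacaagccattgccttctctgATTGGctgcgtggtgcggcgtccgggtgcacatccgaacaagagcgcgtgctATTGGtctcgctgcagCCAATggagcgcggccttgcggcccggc
Hscb-Chek2 (chr5:110839778-110839978): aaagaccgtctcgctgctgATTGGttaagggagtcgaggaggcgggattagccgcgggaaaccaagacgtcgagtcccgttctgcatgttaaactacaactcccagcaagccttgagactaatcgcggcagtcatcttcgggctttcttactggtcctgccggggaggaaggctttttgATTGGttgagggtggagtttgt
Tbccd1-Dnajb11 (chr16:22857670-22857844): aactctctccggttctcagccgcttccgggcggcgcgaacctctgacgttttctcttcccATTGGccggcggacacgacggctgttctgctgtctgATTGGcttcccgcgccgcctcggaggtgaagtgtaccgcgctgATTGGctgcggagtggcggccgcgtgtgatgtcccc
Kdm4d-Cwc15 (chr9:14500483-14500616): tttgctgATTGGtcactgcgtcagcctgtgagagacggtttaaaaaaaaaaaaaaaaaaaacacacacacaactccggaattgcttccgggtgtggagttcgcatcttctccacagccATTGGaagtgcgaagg
Xab2-Pet100 (chr8:3621317-3621547): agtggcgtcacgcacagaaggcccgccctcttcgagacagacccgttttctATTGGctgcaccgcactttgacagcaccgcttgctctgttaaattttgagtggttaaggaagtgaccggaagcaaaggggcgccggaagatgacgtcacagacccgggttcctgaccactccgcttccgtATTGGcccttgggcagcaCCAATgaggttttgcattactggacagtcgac
Ndufaf2-Ercc8 (chr13:108158624-108158730): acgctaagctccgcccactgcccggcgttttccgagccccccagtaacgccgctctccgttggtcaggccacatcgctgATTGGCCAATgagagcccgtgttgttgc
Tctn3-Entpd1 (chr19:40612234-40612365): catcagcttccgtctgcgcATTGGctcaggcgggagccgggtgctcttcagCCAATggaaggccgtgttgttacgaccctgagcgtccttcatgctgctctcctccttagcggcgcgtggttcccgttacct

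All 5 boxes of Hmmr-Nudcd2 read CCAAT on the plus strand, whereas both boxes of Hscb-Chek2 and all 3 of Tbccd1-Dnajb11 read ATTGG. Recql-Golt1b held 2 boxes in each orientation, and the NF-Y-ChIP summit fell on the first of them, 14 bp from the Recql 5′ end. In Ndufaf2-Ercc8 an ATTGG was directly followed by a CCAAT, with starts 5 bp apart.

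Pairs with weaker peaks and genes of the cell cycle or of DNA repair are shown next. Aurka encodes a mitotic kinase, Foxm1 a transcription factor of genes for mitosis and Brca1 a protein of homologous recombination. Their intervals are shown with the same capitals.
Aurka-Cstf1 (chr2:172370536-172370680): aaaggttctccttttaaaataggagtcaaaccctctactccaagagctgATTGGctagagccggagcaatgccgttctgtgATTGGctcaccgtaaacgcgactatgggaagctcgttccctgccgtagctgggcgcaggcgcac
Rhno1-Foxm1 (chr6:128362912-128362966): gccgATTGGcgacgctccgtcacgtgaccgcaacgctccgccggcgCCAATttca
Brca1-Nbr1 (chr11:101551956-101552148): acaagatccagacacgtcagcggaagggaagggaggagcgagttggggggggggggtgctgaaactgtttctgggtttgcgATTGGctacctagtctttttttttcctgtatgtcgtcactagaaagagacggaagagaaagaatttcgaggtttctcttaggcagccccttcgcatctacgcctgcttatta

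The 3 pairs with the highest H3K4me3-ChIP fold enrichment among those with 2 or more boxes and no NF-Y-ChIP peak are shown for contrast. Each held 3 boxes.
Fbh1-Ankrd16 (chr2:11777583-11777875): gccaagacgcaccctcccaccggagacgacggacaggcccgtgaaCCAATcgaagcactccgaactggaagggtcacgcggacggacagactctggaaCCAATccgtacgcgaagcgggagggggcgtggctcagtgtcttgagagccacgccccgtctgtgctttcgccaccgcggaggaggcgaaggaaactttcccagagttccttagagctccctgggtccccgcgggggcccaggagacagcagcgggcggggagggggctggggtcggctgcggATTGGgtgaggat
Ccdc148-Pkp4 (chr2:59160684-59160849): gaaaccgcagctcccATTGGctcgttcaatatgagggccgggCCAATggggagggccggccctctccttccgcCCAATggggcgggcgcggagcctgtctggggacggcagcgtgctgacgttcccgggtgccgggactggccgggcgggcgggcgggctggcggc
Setd3-Ccnk (chr12:108179315-108179578): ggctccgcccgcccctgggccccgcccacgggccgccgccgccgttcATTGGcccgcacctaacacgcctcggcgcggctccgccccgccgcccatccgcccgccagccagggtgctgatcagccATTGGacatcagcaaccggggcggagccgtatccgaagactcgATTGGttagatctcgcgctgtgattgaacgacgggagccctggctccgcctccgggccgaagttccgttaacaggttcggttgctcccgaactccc

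An NF-Y-ChIP peak overlapped 61 of 754 pairs, or 8.09% (6.35 to 10.3). It overlapped 484 of 20451 other 5′ ends, or 2.37% (2.17 to 2.58), a difference of 5.72 percentage points (3.97 to 7.90). Over all protein-coding 5′ ends taken singly the share was 2.74%. The pairs were also nearly all marked by H3K4me3, with a peak in 717 of 754 (95.1%, 93.3 to 96.4) against 11351 other 5′ ends (55.5%), beside 58.2% over all protein-coding 5′ ends. The difference in H3K4me3 was 39.6 points (37.7 to 41.1). All 61 pairs with an NF-Y-ChIP peak had an H3K4me3-ChIP peak.

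The comparison was therefore repeated among promoters with an H3K4me3-ChIP peak, called marked below. NF-Y-ChIP peaks lay at 61 of 717 marked pairs (8.51%, 6.68 to 10.8) and at 480 of 11351 marked other 5′ ends (4.23%, 3.87 to 4.61). The share over all marked 5′ ends was 4.69%. The difference was 4.28 points (2.41 to 6.58), smaller than before the restriction to marked promoters. A pair region is longer than the region of a single 5′ end, so the 5′ ends of the pairs were also read singly over 500 bp on each side. Of 1409 marked single 5′ ends of pairs, 118 had an NF-Y-ChIP peak (8.37%), which was 4.15 points (2.76 to 5.75) above the other marked 5′ ends. Since most of these 5′ ends shared a peak with their partner, this interval is too narrow.

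The other 5′ ends were divided by what lay head to head with them within 1000 bp. Among marked 5′ ends the share with an NF-Y-ChIP peak was 5.20% for 1404 with a non-coding partner, 4.24% for 849 whose protein-coding partner overlapped them, and 4.08% for 9098 without a partner. The marked pairs lay 3.31 points (1.07 to 5.81), 4.27 points (1.86 to 6.82) and 4.43 points (2.55 to 6.73) above these classes, respectively. The share of pairs varied with distance, however. Of 312 pairs up to 100 bp apart, 303 were marked and 14 had an NF-Y-ChIP peak (4.49%, 2.69 to 7.39). This was close to the 4.23% of all marked other 5′ ends. H3K4me3 gave another order, since 94.9% of the 5′ ends with an overlapping partner were marked, beside 95.1% of the divergent pairs. The plot of shares by kind of promoter shows both measures.

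**Figure D1:**
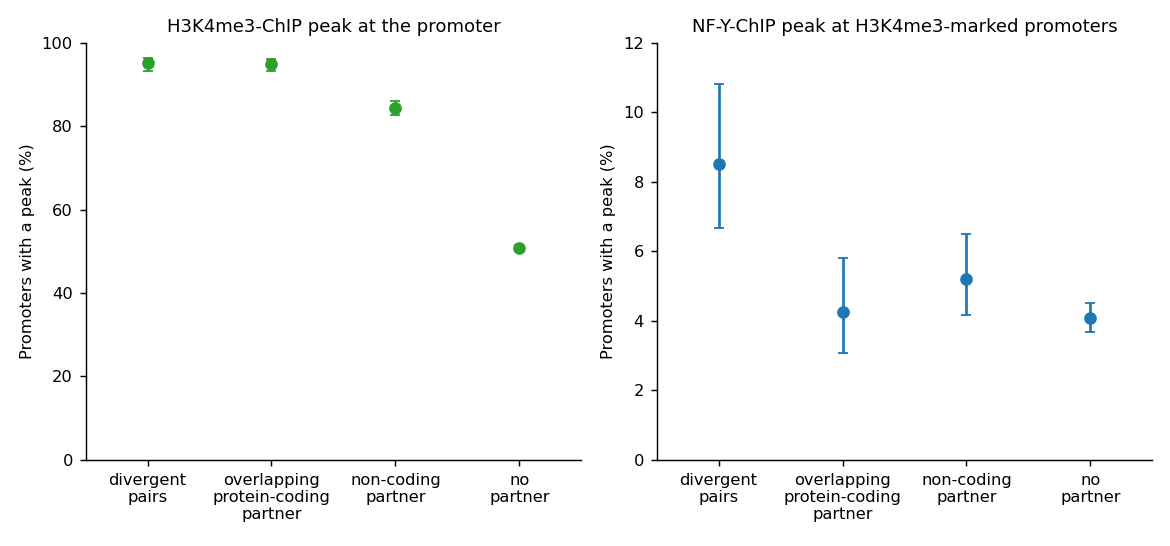
Percentage of promoters with an H3K4me3-ChIP peak (left, of all promoters of each kind) and with an NF-Y-ChIP peak (right, of H3K4me3-marked promoters), where points are shares and bars are Wilson 95% intervals. Divergent pairs and 5′ ends with an overlapping partner had similar shares with H3K4me3 (95.1% and 94.9%), but NF-Y-ChIP peaks lay at 8.51% of the former and 4.24% of the latter. Among pairs up to 100 bp apart, marked or not, they lay at 4.49%.

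H3K4me3 strength was also matched. Marked promoters were divided into 4 classes at H3K4me3-ChIP fold enrichments of 25.8, 39.8 and 52.8, the quartiles over all marked 5′ ends. From the weakest to the strongest class, NF-Y-ChIP peaks lay at 4.12%, 7.50%, 11.0% and 8.71% of the marked pairs, and at 1.70%, 4.13%, 5.26% and 6.07% of the other 5′ ends. The pairs were higher in each class. The interval of the difference lay above 0 in the second class (0.110 to 8.56 points) and in the third (2.10 to 10.6), but included 0 in the first (-0.141 to 8.44) and in the fourth (-0.451 to 6.97).

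No higher fold enrichment was seen at the NF-Y-ChIP peaks of pairs. Their fold enrichment had a median of 6.43 (5.80 to 7.75, range 3.61 to 28.3) over 61 pairs, against 6.87 (6.66 to 7.30) over 466 peaks that were the strongest at other 5′ ends. Of the 61 pairs, 28 lay above 6.75, the median of all 733 peaks, and 4 of the 50 strongest peaks lay at pairs. The pairs accounted for 60 of 733 peaks (8.19%), and another 469 (64.0%) lay at other 5′ ends only. Because Rpa3-Umad1 and Rpa3-Gm45062 share a peak, as do Fbxo24-Lrch4 and Fbxo24-Gm20605, the strongest peaks of the 61 pairs stood at 59 loci. The q-value was 0.05 or more at 2 of the 61 pairs.

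The 10 pairs with the highest NF-Y-ChIP fold enrichment are described in order. Hmmr, which encodes a microtubule-binding protein of the mitotic spindle, and Nudcd2, a co-chaperone gene, had the highest value (28.3), which ranked 7 among all NF-Y-ChIP peaks. Their 5′ ends on chromosome 11 were 245 bp apart, and the summit lay 170 bp from Hmmr and 75 bp from Nudcd2. Recql, a DNA helicase gene, and Golt1b, a gene of Golgi transport, had a fold enrichment of 17.3, with 134 bp between the 5′ ends. Hscb, for a co-chaperone of iron-sulfur cluster assembly, and Chek2, for a kinase of the DNA damage checkpoint, had 16.8. Tbccd1 and Dnajb11, the latter for a co-chaperone of the endoplasmic reticulum, had 16.2.

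The next 6 pairs ranged from 14.3 to 10.0. Kdm4d, a histone demethylase gene, and Cwc15, a gene of the spliceosome, had 14.3. Xab2, for a protein of splicing and transcription-coupled repair, and Pet100, for an assembly factor of cytochrome c oxidase, had 13.6. Ndufaf2, for an assembly factor of respiratory complex I, and Ercc8, of transcription-coupled repair, had 11.4. The ciliary gene Tctn3 and Entpd1, an ectonucleotidase gene, had 10.2. Prr11 and Ska2, the latter for a kinetochore protein, also had 10.2, and their interval of 526 bp held 10 boxes, the most in any NF-Y pair. Dedd2 and Zfp526 had 10.0, with 5′ ends 810 bp apart, and the summit lay 23 bp from Zfp526 and 787 bp from Dedd2. The summit lay between the 5′ ends in all 10 pairs.

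The position of the summit was then read against both 5′ ends. In 43 of 61 pairs (70.5%, 58.1 to 80.4) it lay between them. It lay inside the minus-strand gene in 10 pairs and at or inside the 5′ end of the plus-strand gene in 8. The distance to the nearer 5′ end had a median of 52.0 bp (38.0 to 62.0) and that to the farther 5′ end 170 bp (132 to 222). The minus-strand gene was the nearer in 31 of 60 pairs with unequal distances, an even split. At other 5′ ends the summit had a median position of -60.0 bp (-67.0 to -50.0), where negative values are upstream. The NF-Y-ChIP peak reached over both 5′ ends in 23 of 61 pairs (37.7%), and the summit was within 100 bp of both in 14.

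**Figure D2:**
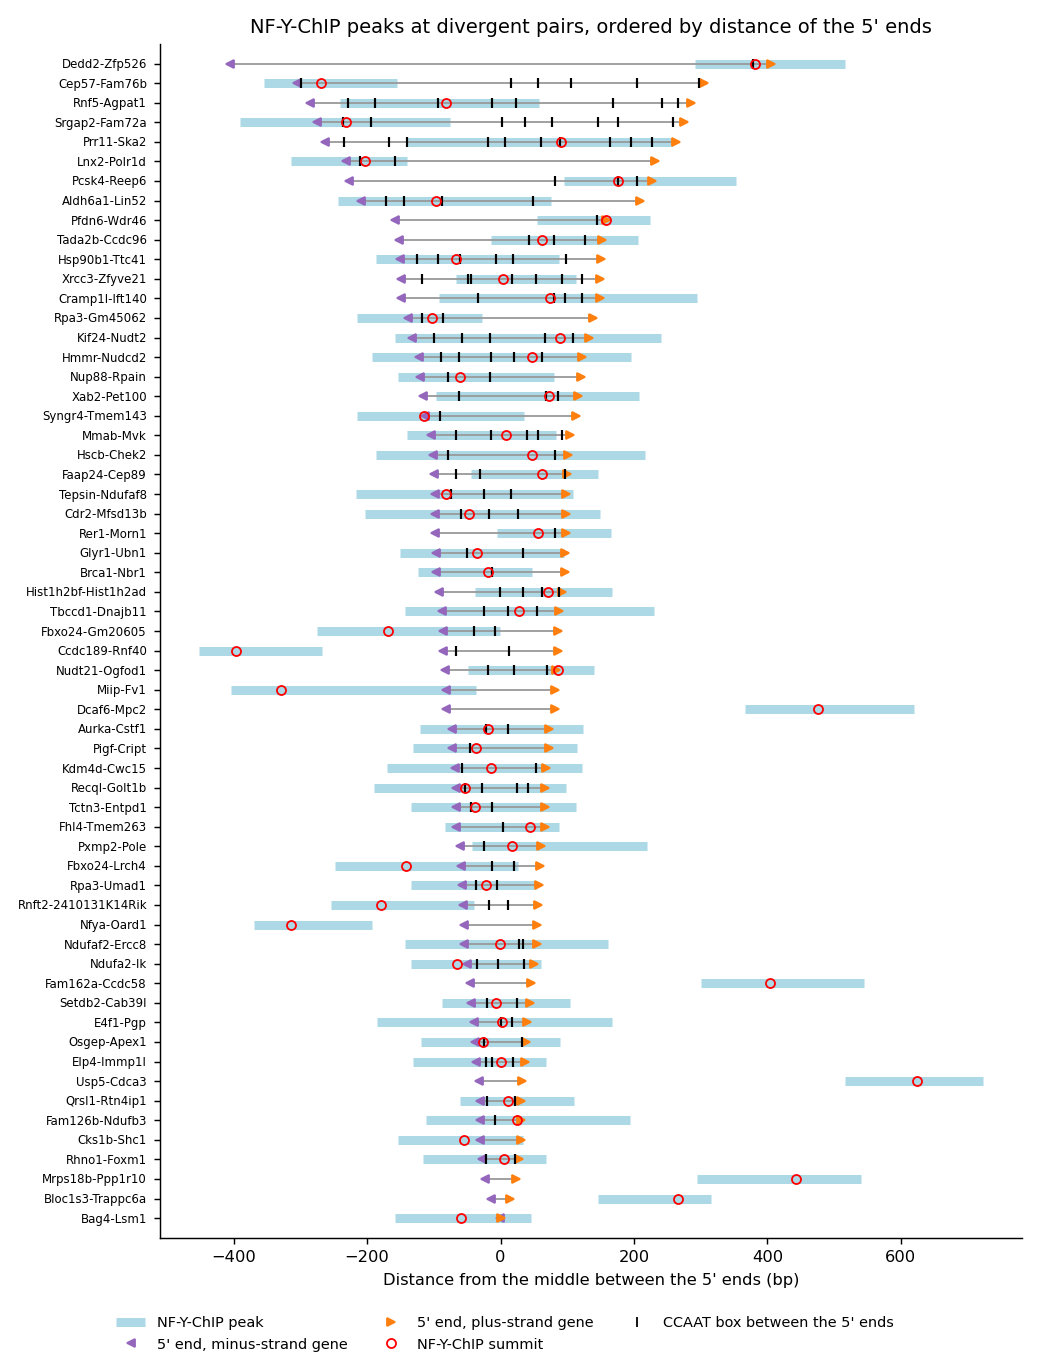
Each row is 1 of 60 of the 61 pairs with an NF-Y-ChIP peak, ordered by the distance of the 5′ ends, and the horizontal axis is the distance in bp from the middle between them. Summits (red circles) lay between the 5′ ends (triangles) in 43 pairs, and bars show the strongest NF-Y-ChIP peak of each pair and ticks the CCAAT boxes between the 5′ ends.

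Of the 18 summits that did not lie between the 5′ ends, 14 lay in a UTR exon, 3 in an exon of a non-coding transcript and 1 in an intron. Of these 18, however, 15 stood at or within 200 bp upstream of the start of a transcript of either gene. Such a start can be the 5′ end of the partner, so the 15 need not lie at alternative starts of the gene around them. With these, 57 of 61 summits (93.4%, 84.3 to 97.4) were at or within 200 bp upstream of an annotated start of the pair. Measured from the gene 5′ ends, the summit farthest inside a gene was that of Usp5-Cdca3, 592 bp inside Cdca3, which encodes a factor of mitotic entry. That summit was nevertheless 78 bp upstream of a transcript start of the pair. A pair of 5′ ends chosen after its values were seen, Bag4-Lsm1, was only 1 bp apart, and its summit lay 58 bp inside Bag4.

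Nfya, which encodes the NF-YA subunit itself, was also in such a pair, with Oard1 (also chosen after its values were seen). The 5′ ends on chromosome 17 were 108 bp apart, and no box lay between them. The NF-Y-ChIP peak, with a fold enrichment of 4.74, had its summit 260 bp inside Nfya in a UTR exon, where 3 boxes lay within 50 bp. The box nearest the summit is shown with 10 bases on each side, with ATTGG in capitals.
Nfya-Oard1 box nearest the summit (chr17:48409650-48409674): gcccgcgctgATTGGctccagtacc

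CCAAT boxes were more frequent in the NF-Y pairs than in the other marked pairs. A box lay between the 5′ ends in 52 of 61 NF-Y pairs (85.2%, 74.3 to 92.0) and in 223 of 656 marked pairs without a peak (34.0%, 30.5 to 37.7), a difference of 51.3 points (39.7 to 58.9). With 2 or more boxes the shares were 70.5% (43 of 61) and 15.7% (103 of 656). The intervals of NF-Y pairs were longer (below). In windows of equal length, 150 bp centred on the middle of each pair, a box lay in 77.0% and 30.0%. The remaining 9 NF-Y pairs had their boxes elsewhere, since a box lay within 50 bp of the summit in 61 of 61. Counted by peak, 59 of 60 peaks in pair regions (98.3%, 91.1 to 99.7) had a box within 50 bp of the summit, as had 427 of 466 peaks at other 5′ ends (91.6%, 88.8 to 93.8).

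The share of marked pairs with an NF-Y-ChIP peak was larger with more boxes between the 5′ ends. The part of interval length in this was not tested. It was 2.04% of 442 pairs without a box, 6.98% of 129 with 1 box, 24.7% of 81 with 2, 26.3% of 38 with 3 and 48.1% (30.7 to 66.0) of 27 with 4 or more. The intervals of neighbouring classes overlapped except between 1 box (3.71 to 12.7) and 2 boxes (16.6 to 35.1). The median fold enrichment had overlapping intervals. It was 6.19 (4.74 to 8.34) without a box between, 5.57 (5.11 to 9.77) with 1 and 6.48 (5.80 to 8.02) with 2 or more.

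**Figure D3:**
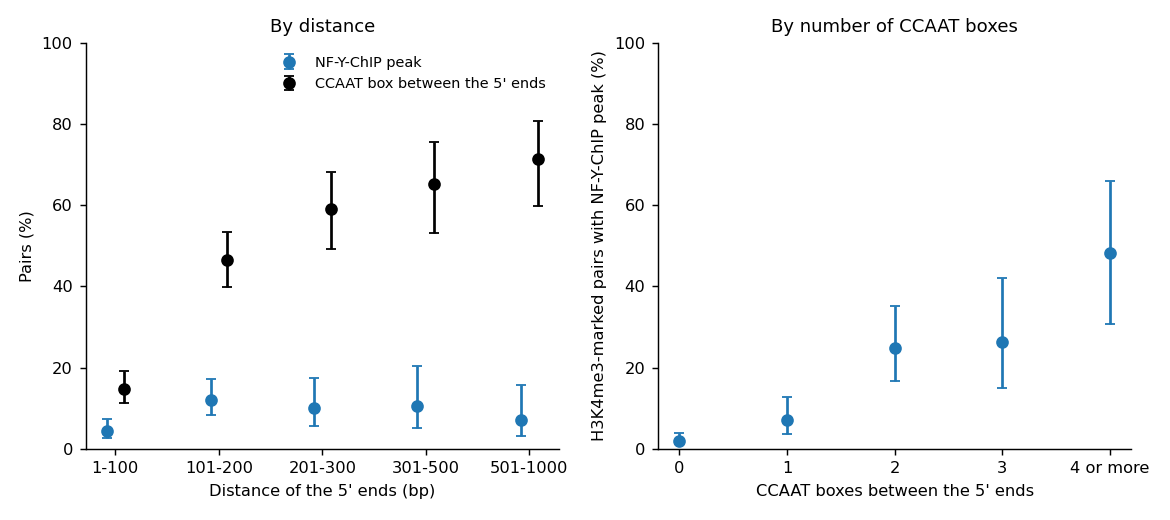
Left, percentage of all pairs with an NF-Y-ChIP peak (blue) and with a CCAAT box between the 5′ ends (black) in 5 classes of distance; right, percentage of H3K4me3-marked pairs with an NF-Y-ChIP peak by the number of boxes, with Wilson 95% intervals as bars. NF-Y-ChIP peaks were least frequent at 1 to 100 bp (4.49%) and lay at 2.04% of marked pairs without a box and 48.1% of those with 4 or more.

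The same was read at single marked 5′ ends over the 200 bp upstream, a stretch of equal length in pairs and elsewhere. A box was present at 38.0% of the 5′ ends of pairs and 31.1% of the others, and 2 or more at 17.2% and 10.1%, a difference of 7.04 points (5.08 to 9.17). With equal numbers of boxes the gap between pairs and others was 1.02 points (0.231 to 2.21) at 0 boxes, 1.52 (-1.04 to 5.10) at 1, 8.46 (1.34 to 16.6) at 2 and 4.23 (-6.51 to 15.3) at 3 or more. Thus 2 of the 4 intervals included 0. The 5′ ends of a pair share sequence and peaks, so these intervals are also too narrow. At 3 or more boxes, NF-Y-ChIP peaks lay at 42.4% of the 5′ ends of pairs and 38.2% of the others.

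The boxes lay in both orientations. Counted once where pairs share them, 151 boxes lay between the 5′ ends of NF-Y pairs, of which 84 (55.6%, 47.7 to 63.3) read CCAAT on the plus strand. Both orientations occurred in 21 of the 43 pairs with 2 or more boxes, where pairs with the same boxes are counted separately. Neighbouring boxes were a median of 41.0 bp apart (quartiles 31.0 and 64.0), and 74.3% (65.0 to 81.8) of the spacings were 60 bp or less. A box was a median of 52.0 bp from the nearer 5′ end. In the 52 pairs with a box between, the one nearest the summit was a median of 15.0 bp (10.0 to 19.0) from it.

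Boxes without an NF-Y-ChIP peak were common. Marked pairs with 2 or more boxes and no peak numbered 103. The highest H3K4me3-ChIP fold enrichments among them were 76.1 at Fbh1-Ankrd16, where Fbh1 encodes a DNA helicase, 75.0 at Ccdc148-Pkp4, where Pkp4 encodes a plakophilin, and 74.7 at Setd3-Ccnk, where Ccnk encodes cyclin K. Their intervals, shown above, were 294, 167 and 265 bp long by the distance of the 5′ ends. At the unknown depth of this library, a site below the threshold of the peak calling cannot be told apart from an unbound one.

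The distance of the 5′ ends had a median of 129.5 bp over all pairs (117 to 140), of 173 bp (134 to 199) over NF-Y pairs and of 119.5 bp (108 to 134) over marked pairs without a peak. An NF-Y-ChIP peak lay at 14 of 312 pairs up to 100 bp apart (4.49%, 2.69 to 7.39) and at 25 of 206 from 100 to 200 bp (12.1%, 8.36 to 17.3). The shares were 10.0% of 100 pairs from 200 to 300 bp, 10.6% (5.23 to 20.3) of 66 from 300 to 500 bp and 7.14% (3.09 to 15.7) of 70 from 500 to 1000 bp. The first class lay below the second without overlap of their intervals, and 5.51 points (0.177 to 13.2) below the third, whereas its interval overlapped those of the classes over 300 bp. A longer interval holds more boxes by its length, and a box was found between the 5′ ends in 14.7%, 46.6%, 59.0%, 65.2% and 71.4% of the pairs in these classes. Among the shortest pairs with a peak, 7 of 14 summits lay between the 5′ ends, and 8 of 14 pairs had a box there.

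H3K4me3 was then read across both genes of a pair. A single H3K4me3-ChIP peak reached over both 5′ ends in 637 of 717 marked pairs (88.8%, 86.3 to 90.9). The summit of the strongest H3K4me3-ChIP peak of each pair, however, seldom lay between them, with 18 of 717 (2.51%, 1.59 to 3.93). This share differed with distance, from 0 of 303 marked pairs up to 100 bp apart to 9.84% (4.59 to 19.8) of 61 from 500 to 1000 bp. The summit lay on the minus-strand gene in 363 pairs and on the plus-strand gene in 336. The distance from the summit to the middle had a median of 317 bp (303.5 to 332.5). In 683 pairs (95.3%) H3K4me3 reached downstream of both 5′ ends within 500 bp, in 33 of only 1 gene and in 1 of neither. At the other marked 5′ ends the summit was downstream in 90.4%.

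**Figure D4:**
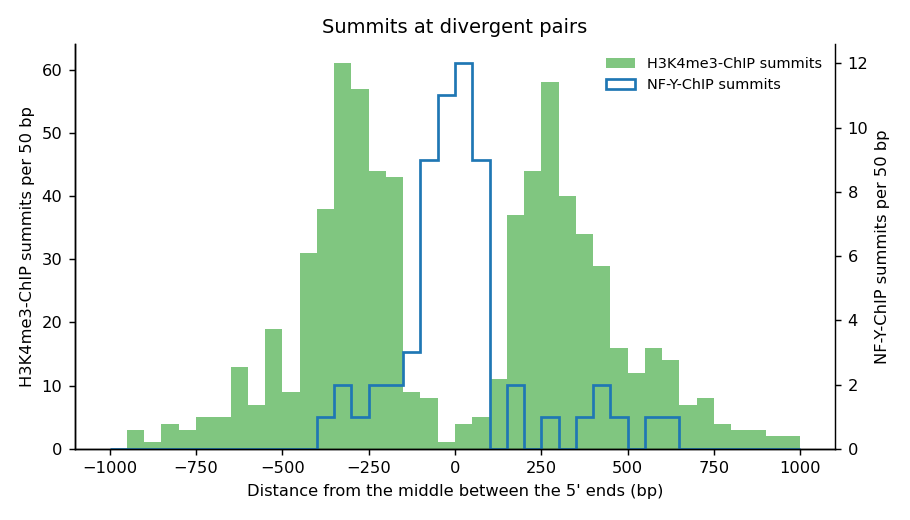
Number of pairs per 50 bp by the distance of the strongest summit from the middle between the 5′ ends in bp, for H3K4me3-ChIP (green, left axis, 717 pairs, 7 of them beyond the 1000 bp drawn) and NF-Y-ChIP (blue line, right axis, 61 pairs). Within 100 bp of the middle lay 41 of 61 NF-Y-ChIP summits but 18 of 717 H3K4me3-ChIP summits.

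Coverage of both 5′ ends by 1 peak was less frequent with distance, from 97.7% of the marked pairs up to 100 bp apart to 54.1% of those from 500 to 1000 bp apart. It was 80.3% (49 of 61) in NF-Y pairs and 89.6% (588 of 656) in other marked pairs, a difference of -9.31 points (-21.1 to -0.862). NF-Y pairs also had longer distances (above), and the part of distance in this difference was not tested. Among NF-Y pairs with the NF-Y-ChIP summit between the 5′ ends and nearer to 1 of them, and the H3K4me3-ChIP summit on a gene, the latter was on the nearer gene in 20 of 41 (48.8%, 34.3 to 63.5).

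The H3K4me3-ChIP peaks of pairs were stronger and wider than those of other 5′ ends. The fold enrichment had a median of 46.0 (44.5 to 47.6) in 717 marked pairs and 38.8 (38.4 to 39.4) at 11351 marked other 5′ ends, and the width had medians of 1737 bp (1686 to 1784) and 1365 bp (1350 to 1377). The region of a pair can meet more peaks than that of a single 5′ end, and the strongest was taken in each. NF-Y pairs had a fold enrichment of 46.7 (43.9 to 52.4), close to 45.7 (44.2 to 47.6) in the marked pairs without an NF-Y-ChIP peak. The width of the peaks in NF-Y pairs was 1855 bp (1711 to 2052).

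The 37 unmarked pairs had no NF-Y-ChIP peak, although 19 of them (51.4%) had a box between the 5′ ends. Their middle windows of 150 bp held few CpG, with a median ratio of observed to expected CpG of 0.285 against 0.871 over all pairs. Examples chosen after their values were seen were Pecam1-Milr1, where Pecam1 is an endothelial gene, Kirrel2-Nphs1, where Nphs1 is a gene of kidney podocytes, Duox2-Duoxa2 of the thyroid, and Ifit1bl2-Ifit1 of the interferon response. Others held a broadly expressed gene, such as Rnf151-Rps2 with a ribosomal protein, Slc27a5-Trim28 with a corepressor and Ccnt1-4930415O20Rik with cyclin T1. Histone genes made up 3 of the 37.

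Short motifs were counted in windows of 150 bp, centred on the middle of a pair or directly upstream of another 5′ end. A centred window reaches into the genes where the 5′ ends are less than 150 bp apart. Each motif was searched on both strands, and a match is given as a description. CCAAT boxes stood at 11.4 per kb in NF-Y pairs, 2.91 in marked pairs without a peak, 10.1 at marked other 5′ ends with a peak and 2.15 at those without. GGGCGG, the GC box, was in 52.5% of all pairs and 33.7% of all other 5′ ends, but in marked ones without an NF-Y-ChIP peak in 55.0% and 53.2%.

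For other motifs, the comparison of all promoters is followed by that of marked promoters without an NF-Y-ChIP peak. CCGGAAG, a motif of ETS factors, was in 18.4% (15.8 to 21.4) of all pairs and 5.91% (5.60 to 6.24) of all other 5′ ends, and among the marked ones in 20.0% (17.1 to 23.2) and 9.36% (8.82 to 9.92). AAGATGGC, a motif of YY1, was in 3.32% (2.26 to 4.85) and 0.699% (0.594 to 0.823), and among the marked ones in 3.66% (2.47 to 5.39) and 0.957% (0.790 to 1.16). GCATGCGC, a motif of NRF1, was in 5.04% (3.69 to 6.84) and 2.14% (1.95 to 2.34), but among the marked ones the intervals overlapped, at 5.03% (3.60 to 6.98) and 3.48% (3.15 to 3.84). TATAAA was in 2.39% (1.52 to 3.74) of pairs and 7.58% (7.23 to 7.95) of other 5′ ends, but among the marked ones the intervals overlapped, at 2.44% (1.51 to 3.93) and 3.31% (2.99 to 3.66). It was in 0 of 61 NF-Y pairs (interval up to 5.92%). CCGGAAG was in 13.1% (6.80 to 23.8) of NF-Y pairs, against 20.0% (17.1 to 23.2) of marked pairs without an NF-Y-ChIP peak, and these intervals overlapped. GC content had medians of 58.7% in NF-Y pairs and 63.3% in marked pairs without a peak.

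Gene lists were then laid over the pairs, and the counts below are of list genes only. The lists are not complete, since that of DNA repair lacked Ercc8 and Xab2 and that of mitosis lacked Ska2, all named above. Over all pairs 8.09% had an NF-Y-ChIP peak. Mitosis genes were in 18 pairs, of which 5 had a peak, and outside pairs 18 of 80 had one. Besides Hmmr-Nudcd2, these were Aurka-Cstf1 (7.63), Usp5-Cdca3 (7.40), Cks1b-Shc1 (6.64) and Rhno1-Foxm1 (5.77), where the values are the NF-Y-ChIP fold enrichment and Cks1b encodes a subunit of cyclin-dependent kinases. DNA repair genes were in 28 pairs, of which 5 had a peak, and outside pairs 3 of 45 had one. These were Recql-Golt1b, Hscb-Chek2, Xrcc3-Zfyve21 (6.16), Brca1-Nbr1 (5.57) and Osgep-Apex1 (5.25), where Xrcc3 is a gene of recombination and Apex1 a gene of base excision repair. DNA replication genes were in 10 pairs, of which 3 had a peak, and outside pairs 4 of 48 had one. Pxmp2-Pole (4.64), with the catalytic subunit of DNA polymerase epsilon, was one of them, and the other two shared a single peak (5.11) through Rpa3, for a subunit of replication protein A.

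Mki67, Ube2c, Aspm and Wdr62 were in no divergent pair.

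Chaperone genes were in 13 pairs, of which 3 had a peak, and outside pairs 7 of 40 had one. The 3 pairs were Tbccd1-Dnajb11, Hsp90b1-Ttc41 (8.24) and Pfdn6-Wdr46 (5.25), where Hsp90b1 encodes the HSP90 of the endoplasmic reticulum and Pfdn6 a prefoldin subunit. Genes of oxidative phosphorylation were in 19 pairs, with a peak at Fam126b-Ndufb3 (9.77) and Ndufa2-Ik (5.96). Mitochondrial ribosome genes were in 18 pairs, with a peak at Mrps18b-Ppp1r10 (5.88). Spliceosome genes were in 13 pairs, of which 1 had a peak. The 5 pairs with tRNA synthetase genes and the 8 with cytosolic ribosome genes had none. For all these lists, the share over all pairs was 8.09%. Outside pairs, a peak lay at 2 of 66 genes of oxidative phosphorylation, 0 of 60 of the mitochondrial ribosome, 2 of 45 of the spliceosome, 1 of 31 tRNA synthetase genes and 2 of 74 of the cytosolic ribosome. The share over all other 5′ ends was 2.37%, and 4.23% over the marked ones, to which most genes of these lists belong. None of 40 neuronal genes was in a divergent pair, beside 6.78% of all protein-coding genes, and 33 of them were marked, beside 58.2% of all 5′ ends.

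Replication-dependent histone genes were in 14 pairs, of which 13 joined 2 histone genes. All 13 had boxes between the 5′ ends, from 2 to 5 of them. Their median distance was 268 bp, and 59.0% of all pairs from 200 to 300 bp apart had a box. Of the 13, 10 were marked (76.9%, beside 95.1% of all pairs). Their H3K4me3-ChIP fold enrichments were 8.21 to 19.1, below the median of 46.0 over all marked pairs. An NF-Y-ChIP peak (7.75) lay at 1 of the 13 (7.69%, beside 8.09% of all pairs), Hist1h2bf-Hist1h2ad, with 4 boxes in 185 bp. Outside pairs, a peak lay at 5 of 40 histone genes, of which 34 were marked. These genes are near-identical copies whose reads may map to several places, so their peaks and gaps are uncertain. The interval of Hist1h2bf-Hist1h2ad is shown with boxes in capitals.
Hist1h2bf-Hist1h2ad (chr13:23574197-23574380): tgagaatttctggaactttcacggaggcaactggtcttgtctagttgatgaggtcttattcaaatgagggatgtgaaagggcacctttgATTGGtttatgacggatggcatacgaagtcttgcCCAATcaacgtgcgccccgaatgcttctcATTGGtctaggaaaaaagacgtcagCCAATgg

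Divergent pairs long used as models of such promoters were looked up by name. The rule found 8 of 16, among them Col4a4-Col4a3, Mcm4-Prkdc, Atm-Npat, Mrps12-Sars2, Gart-Son, Aimp2-Pms2 and Pdcd10-Serpini1. Each was marked, with H3K4me3-ChIP fold enrichments from 5.23 at Col4a4-Col4a3, collagen genes of basement membranes, to 59.4 at Pdcd10-Serpini1. None of the 8 had an NF-Y-ChIP peak, beside 8.51% of all marked pairs. A box lay between the 5′ ends of 7 of them, with 4 boxes in the 172 bp of Mrps12-Sars2. The 5′ ends of the other 8, such as Hspd1-Hspe1, overlapped by 21 to 277 bp in the annotation. They were marked as well and had no NF-Y-ChIP peak. Of all 5′ ends with an overlapping protein-coding partner 94.9% were marked, and 4.24% of the marked ones had an NF-Y-ChIP peak.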

How the data were processed

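Reads were trimmed (Trimmomatic) and mapped to mm10, which is GRCm38, by Bowtie2 2.2.8, and the authors called peaks with MACS2 2.1.2, according to the processing notes of the submitters and the methods of the study. The threshold was a p-value of 0.001 (NF-Y-ChIP) or a q-value of 0.05 (H3K4me3-ChIP). The study names an input as the negative control of its ChIP, but whether MACS2 used it is not given in the sources used here. The H3K4me3-ChIP list used here differs in its number of peaks from the number of regions the study gives. Each deposited peak has a fold enrichment, a ratio of summit signal to local background. The authors' lists also hold the −log10 of the p-value and q-value. In the deposited lists the score equalled 10 times −log10 p or −log10 q, which, with the thresholds, identified the antibody. Mitochondrial genes were left out.

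Peaks were assigned by 1 bp of overlap, and the strongest in fold enrichment described a region. Shares have Wilson 95% intervals, differences Newcombe intervals and medians intervals from order statistics. Boxes were located in the RefSeq sequence of GRCm38. SciPy 1.17.1, pandas 2.3.3 and pysam 0.24.0 were used. Functions were tested on simulated data, where the pair finder recovered 105 of 105 pairs. The members, gene lists and motifs were chosen with earlier results of these data known. Pairs were named by rule as the 10 with the highest NF-Y-ChIP fold enrichment, the known pairs found, NF-Y pairs with a gene of a list, the 3 most strongly marked pairs with 2 or more boxes and no peak, NF-Y pairs without a CCAAT box in the region or without H3K4me3 (none), and Mki67, Ube2c, Aspm and Wdr62. A few named genes and pairs are not reported here. Alternatives were the threshold, overlap, region, distance and comparison group.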

Additional observations from a re-analysis of the deposited data

How the results depend on the processing

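Of 67 alternatives, 58 stayed within the interval of the reported value and 9 moved beyond it. Only the difference in NF-Y-ChIP share could change sign, and it did so in none of its 11 alternatives. The difference in NF-Y-ChIP share between marked pairs and marked other 5′ ends ranged from 3.98 to 4.43 points over 11 alternatives, and the lowest bound of its intervals was 1.94. The share with an H3K4me3-ChIP peak moved with the setting. With the summit required in the region it was 86.6% of pairs and 46.3% of other 5′ ends, and with the stronger 50% of the H3K4me3-ChIP peaks 80.0% and 39.0%. At other 5′ ends it was 54.4% with 250 bp and 56.5% with 1000 bp on each side, and 50.8% at those without a head-to-head partner, where the NF-Y-ChIP share was 2.09%. Both 5′ ends were covered by 1 H3K4me3-ChIP peak in 92.1% of marked pairs up to 500 bp apart. The causes were not tested. No paired analysis was possible because each antibody had 1 library, and no replicate could be left out. Depth, background of the input and variation between embryos were not measured by the lists used here.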
